A study of Mus musculus with 4 samples.

Results

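Closely spaced pairs of SMC3 summits were examined in mouse spermatocytes, the cells of the testis that go through meiosis. The doublets were chosen by the measured positions of SMC3 summits alone. A doublet was defined as 2 neighbouring SMC3 summits on chromosomes 1 to 19 that lie 1000 bp or less apart, in the list called at a false discovery rate (FDR) of 0.1. The rule found 489 doublets among 16260 pairs of neighbouring summits, a share of 3.01%. They contained 942 of the 16279 autosomal SMC3 summits, and the other 15337 summits, which had no SMC3 neighbour within 1000 bp, are called solitary here. The whole SMC3 list held 17778 summits with the sex chromosomes and the mitochondrial genome included.

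Both ChIP-seq libraries came from testes of C57BL/6 mice with an N-terminally LAP-tagged Smc1b construct, sorted for green fluorescence after formaldehyde fixation and pooled. One library was precipitated with a rabbit antibody against SMC3 and 1 with a goat antibody against GFP, which binds the tag, so all cells came from animals with the construct and there is no untagged group. An input library belongs to each target and was not analysed here. How many animals were pooled is not given in the sources used here, and lists of summits hold no expression values by which the cell type could be checked.

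Cohesin is a protein ring that keeps sister chromatids paired, forms chromatin loops and builds the chromosome axis of meiotic cells. SMC3 is a core ATPase subunit present in every cohesin ring. It pairs either with SMC1A or, in meiotic cells, with SMC1B, so SMC3 reports on all cohesin and the tagged SMC1B on the meiotic form. A summit is the 1-base position where the peak caller placed the top of a peak. Its score, the −log10 of the q-value, ranks summits within 1 list.

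With 1 library per target there were no replicates and no test across samples was possible. Intervals given below are 95% intervals that cover only the counting error of summits, and they treat summits as independent, although summits of 1 stretch share their surroundings. The read depth behind the lists is unknown. Spacing, SMC3 scores and membership of the stricter list come from the library that chose the doublets and are descriptions. SMC1B-LAP comes from the other precipitation and played no part in the choice.

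The spacing within doublets ran from 141 to 1000 bp with a median of 491 bp and quartiles of 299 and 748 bp. Pairs were most frequent at 201 to 300 bp, where 97 fell, followed by 74 at 301 to 400 bp. Between 401 and 1000 bp each 100 bp held 39 to 59 pairs. No pair was closer than 141 bp, and 26 lay at 200 bp or less. Above the threshold the counts went down slowly, with 217 pairs at 1001 to 1500 bp, 166 at 1501 to 2000 bp and 273 at 2001 to 3000 bp. The distribution thus had 1 crowded range near 250 bp and otherwise no step at 1000 bp. Across all neighbouring autosomal SMC3 summits the median spacing was 89248 bp. No single spacing recurred often: the 489 doublets had 376 distinct spacings, and the most frequent ones, of which there were 2, were each held by 4 doublets.

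**Figure D1:**
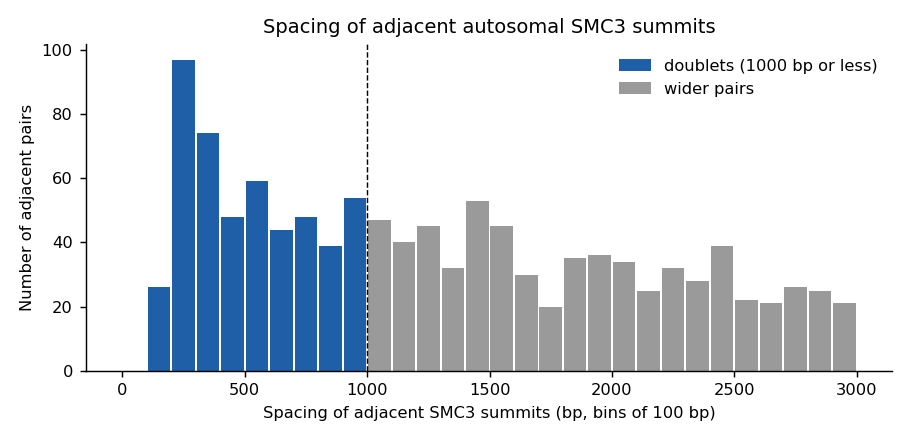
Number of neighbouring autosomal SMC3 summit pairs (vertical axis) by their spacing in bins of 100 bp (horizontal axis, bp). Doublets are blue, wider pairs grey, and the dashed line is the 1000 bp threshold; the tallest bar, at 201 to 300 bp, holds 97 pairs.

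The extremes of the range show how the threshold falls. The closest doublet was on chromosome 11 at positions 116648381 and 116648522 (all positions are mm9, counted from 1), 141 bp apart, with scores of 3.73 and 1.66. The next had spacings of 147 bp on chromosome 10 at 107439041, 150 bp on chromosome 5 at 127657404, 155 bp on chromosome 4 at 31972696 and 159 bp on chromosome 14 at 110927952. Of these 5 closest pairs, the one on chromosome 5 had an SMC1B-LAP summit within 100 bp, 5 bp from its first SMC3 summit. The 5 widest doublets were 997 to 1000 bp apart, at 110482362 on chromosome 12, 87361317 and 147970913 on chromosome 1, 59243625 on chromosome 16 and 56272285 on chromosome 2. Their scores ran from 1.16 to 9.94. The 5 pairs just outside were 1001 to 1011 bp apart, at 99594779 on chromosome 12, 91640163 on chromosome 4, 45289907 on chromosome 14, 87611339 on chromosome 2 and 82704595 on chromosome 16. Their scores ran from 1.29 to 4.45. None of these 10 pairs around the threshold had an SMC1B-LAP summit within 100 bp of either end. Over all neighbouring SMC3 pairs 12.7% had it at 1 end or both, so its absence from 10 pairs says little about the threshold.

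Most doublets were also neighbours in the longer initial call from which the list was taken. The summits carry running numbers of that call. In 476 of the 489 doublets the numbers were consecutive, in 12 another call that missed the FDR of 0.1 lay between them, and in 1 doublet 2 such calls did. Among the 1059 pairs spaced 1001 to 5000 bp the numbers were consecutive in 77.0%, against 97.3% of doublets. A wider gap has more room for another call, and how much of this contrast comes from the spacing itself was not tested.

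The 489 doublets lay in 453 separate stretches. Of these, 426 held exactly 2 summits, 21 held 3, 5 held 4 and 1 held 7. The 27 stretches of 3 or more accounted for 90 summits and 63 doublets, so doublets within them share summits. The 7-summit run spanned 2345 bp of chromosome 3, from 26246188 to 26248533, with gaps of 261, 177, 576, 320, 315 and 696 bp. Its scores were 3.37, 3.02, 1.37, 1.37, 5.59, 2.12 and 1.23. The summits scoring 3.37, 3.02 and 5.59 were in the stricter SMC3 list and the others were not. An SMC1B-LAP summit with a score of 2.22 lay 247 bp before the first SMC3 summit of the run, and none lay inside the run.

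The strongest of the 4-summit runs was on chromosome 1 between 194490314 and 194492239. Its scores were 7.28, 29.7, 24.4 and 6.51, all in the FDR 0.001 list. Its only SMC1B-LAP summit within 1000 bp had a score of 1.34. That summit lay between the 2 highest-scoring SMC3 summits, 283 bp from the nearer one. A second run on chromosome 1, from 173032022 to 173033219, had scores of 18.5, 2.40, 3.02 and 2.68. There SMC1B-LAP lay 1 bp from the first and 15 bp from the last summit, with scores of 6.70 and 2.76, and the inner summits had none within 100 bp. On chromosome 2 the run from 27351895 to 27353398 scored 7.05, 2.69, 6.21 and 5.96. Its last summit had SMC1B-LAP at 28 bp, and another SMC1B-LAP summit lay 220 bp from the second. The runs on chromosome 5, from 105352356 to 105353793 (scores 15.7, 3.90, 1.17 and 8.18), and on chromosome 3, from 88471904 to 88473692 (scores 1.46, 1.68, 5.61 and 1.20), had no SMC1B-LAP summit within 100 bp. On chromosome 5 SMC1B-LAP flanked the run on either side, 251 bp before and 240 bp after it, and on chromosome 3 it lay 105 bp before it.

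**Figure D2:**
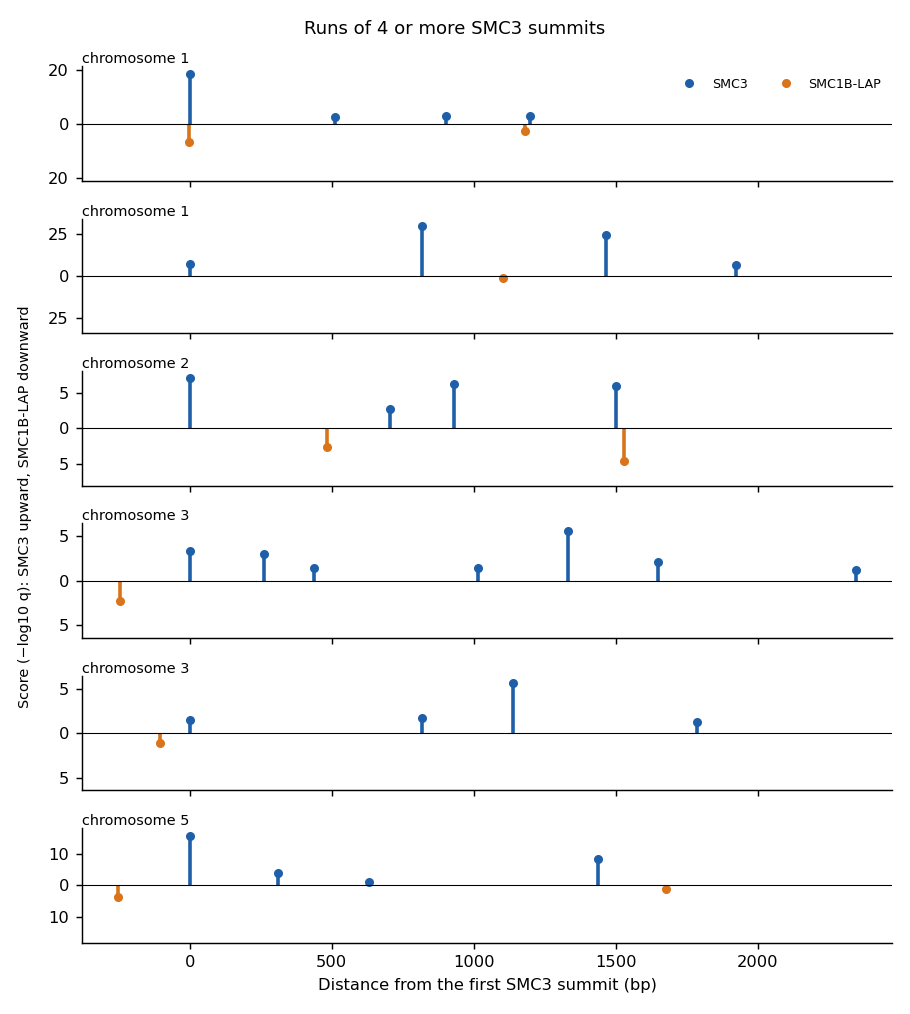
The 6 runs of 4 or more SMC3 summits, 1 panel each; the horizontal axis is the distance in bp from the first SMC3 summit and the vertical axis the score (−log10 of the q-value), upward in blue for SMC3 and downward in orange for SMC1B-LAP, with SMC1B-LAP summits drawn up to 500 bp beyond the run. In 4 of the 6 runs no SMC1B-LAP summit lies within 100 bp of an SMC3 summit.

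Doublet summits had a similar median SMC3 score to solitary ones but few very high scores. The lowest doublet score was 1.00, the median 2.62 and the highest 41.4, with quartiles of 1.66 and 4.16. Solitary summits ran from 1.00 to 116 with a median of 2.52 and quartiles of 1.37 and 4.43. A score of 10 or more was reached by 37 doublet summits, or 3.93%, and by 1277 solitary summits, or 8.33%. Doublet summits made up 5.79% of all autosomal summits and 2.90% of the 1000 with the highest scores. None was among the highest 10, 1 was among the highest 100, and the best of them ranked 98. At the low end, 23.1% of doublet and 27.6% of solitary summits scored under 1.5. The most common single score, 1.37, was held by 7.43% of doublet and 16.5% of solitary summits, so doublets were under-represented both at the top of the list and at this tied value.

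The 2 summits of a doublet were usually unequal. The higher score was 1.79 times the lower at the median, with quartiles of 1.33 and 2.77, and 23.3 times at most. This ratio was computed for doublets only, so unequal scores cannot be read as particular to them. In 31 doublets the ratio was above 5, and in 8 the scores were identical. The first summit along the chromosome was the higher in 247 doublets and the second in 234. Across the 489 doublets Spearman's rho between the scores of the 2 summits was 0.08, and across the 13022 neighbouring pairs more than 20000 bp apart it was 0.02. Pearson's correlation of the log scores within doublets was 0.16. All 3 are descriptions over sites of 1 library.

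The doublets in which both summits were strong were few: 29 had a lower score of at least 5. By the lower score, the leading doublet was that of 29.7 and 24.4 in the chromosome 1 run already described, 648 bp apart. The second was on chromosome 17 at 23683462 and 23684362, 900 bp apart, with scores of 14.5 and 17.7. The third was on the same chromosome at 79487091 and 79488003, with scores of 11.4 and 12.4. They were followed by chromosome 13 at 23591993 and 23592441, scoring 16.6 and 9.41, and chromosome 4 at 129912173 and 129912540, scoring 16.6 and 9.08. The sixth was on chromosome 5 at 14923167 and 14923654, with scores of 9.17 and 7.59, inside a crowded part of that chromosome. The seventh and eighth shared a summit of score 40.6 on chromosome 11 at 68854517. Chromosome 9 at 115060761 (9.79 and 7.36) and the first pair of the same chromosome 1 run (7.28 and 29.7) completed the 10. SMC1B-LAP lay within 100 bp of both summits in 5 of these 10 doublets, the seventh and eighth among them. It lay at 1 summit in the doublet of chromosome 9 and at neither in 4. Over all neighbouring pairs it lay at both summits in 0.56%, and in 2.19% of those with both summits in the FDR 0.001 list. These 10 were picked by SMC3 score, and solitary summits scoring 10 or more had SMC1B-LAP within 100 bp in 35.3%. The share for pairs of like scores was not computed.

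Membership of the stricter SMC3 list, called at an FDR of 0.001, was about the same for doublet and solitary summits. Of all autosomal SMC3 summits 40.8% were in that list. Of the 942 doublet summits 390 were, or 41.4% (38.2% to 44.6%), and of the solitary summits 6259, or 40.8% (40.0% to 41.6%). The difference was 0.59 percentage points with an interval of -2.61 to 3.86. Counted by doublet, both summits were in the strict list in 95 of 489, 1 summit in 220 and neither in 174. Strict summits were more frequent in doublets up to 500 bp apart than in wider ones. Counting a summit once for each pair it belongs to, the share was 45.1% up to 300 bp and 47.5% at 301 to 500 bp. It was 40.6% at 501 to 750 bp and 34.4% at 751 to 1000 bp. With 500 bp in place of 1000 bp as the limit the difference from solitary summits was 5.06 percentage points (0.60 to 9.59).

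Doublets were found on every autosome. They made up 1.91% of neighbouring pairs on chromosome 6 and 1.93% on chromosome 7, the lowest shares, and 4.04% on chromosome 8, the highest, followed by 3.85% on chromosome 17. Chromosome 1 held the most, 45, and chromosome 19 the fewest, 10. On 17 of 19 autosomes the exact interval included the share of 3.01% over all autosomes, and chromosomes 6 (1.17% to 2.94%) and 7 (1.16% to 2.99%) were the exceptions. Along the autosomes, whose centromere lies at the start of the coordinates, each was divided into 10 equal parts between its first and last summit. The first, second and last parts held 13.7%, 13.5% and 12.3% of doublets, and each of the 6 parts from the fourth to the ninth held 7.77% to 9.20%. All SMC3 summits were more even, with 11.8%, 10.7% and 9.67% in those 3 end parts. The exact intervals of the doublet shares there were 10.8% to 17.1%, 10.6% to 16.8% and 9.50% to 15.5%. Each included the summit share of its part, as did the intervals of all other parts, so no part taken alone told doublets and summits apart. The parts were not tested together, so these intervals cannot decide whether doublets follow the summits along the chromosome. The third part held 10.6% of doublets and 9.54% of summits. Per 100 summits there were 3.49, 3.78 and 3.35 doublets in parts 1, 2 and 3, 3.81 in the last part and 2.52 to 2.68 in the parts from the fourth to the ninth. Each of the former parts thus lay above each of the latter. Without crowded windows parts 1, 2 and 3 each held 11.6% of doublets and the last 12.2%.

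Crowded windows are defined by the same SMC3 positions that chose the doublets, so that doublets are frequent in them follows largely from the rule. Of 24146 windows of 100 kb, 23 were densely filled with SMC3 summits, and they held 252 summits, 1.55% of all. They contained 39 doublets, 7.64% of the doublet summits and 1.17% of the solitary summits. Outside them 450 doublets remained when the windows were left out. The 489 doublets were spread over 425 windows, of which 381 held 1. The fullest was that of chromosome 5 from 14.9 to 15.0 Mb with 7 doublets among 22 SMC3 summits. It was followed by chromosome 3 from 26.2 to 26.3 Mb with 6, all in the 7-summit run, chromosome 8 from 19.9 to 20.0 Mb with 5, and chromosome 2 from 27.3 to 27.4 Mb with 4. The fifth place was shared by 6 windows with 3 doublets each. Within 50 kb, doublet summits had on average 1.92 further SMC3 summits beyond their own run and solitary summits 0.99. Outside densely filled windows the averages were 1.25 and 0.87, and the median was 1 for either group.

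The shares of doublet and solitary summits with SMC1B-LAP within 100 bp could not be told apart. Of all 16279 autosomal SMC3 summits 6.63% had an SMC1B-LAP summit of the FDR 0.1 list within that distance. It was 63 of 942 doublet summits, or 6.69% (5.18% to 8.48%), and 1016 of 15337 solitary summits, or 6.62% (6.24% to 7.03%). The difference was 0.06 percentage points with an interval of -1.42 to 1.88, so a gain or loss of up to about these sizes could not be seen with these numbers. The doublet share was the higher on 10 of 19 autosomes, and on chromosomes 7 and 15 no doublet summit had a partner (0 of 38 on each; reading a count of 0 as at most 3 counts allows a share of up to 7.89%). With SMC1B-LAP summits called at an FDR of 0.5 the shares were 9.77% and 10.7%.

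The share with a partner depended on the SMC3 score in both groups. Among doublet summits it was 3.67% (1.60% to 7.10%) at scores of 1 to 1.5, from 8 of 218 summits, 13.2% (8.04% to 20.1%) at 5 to 10, and 43.2% (27.1% to 60.5%) at 10 or more, from 16 of 37. Solitary summits had 1.72% (1.35% to 2.16%), 10.0% (8.74% to 11.5%) and 35.3% (32.7% to 38.0%) in these classes. The doublet share was the higher in 5 of the 6 classes and the lower at scores of 2 to 3, where it was 2.69% against 3.06%. The interval of the difference excluded 0 only in the lowest class, at 1.95 percentage points (0.10 to 5.37), without correction for the 6 classes. Weighted to the score classes of the doublet summits, the solitary share was 5.45%, and the doublet share exceeded it by 1.24 percentage points (-0.31 to 2.79). The interval of this difference lay above 0 under 3 of 9 alternatives: with 250 bp allowed (2.51, 0.76 to 4.26), with the strict SMC3 list (5.54, 0.60 to 10.5), and without the SMC1B-LAP summits at their commonest score (1.53, 0.10 to 2.95). With 250 bp allowed, 1 SMC1B-LAP summit can be counted for both ends of a doublet. The unweighted difference at 250 bp was 1.35 (-0.33 to 3.35) counted this way. It was 0.82 (-0.81 to 2.77) with each SMC1B-LAP summit given only to its nearest SMC3 summit.

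**Figure D3:**
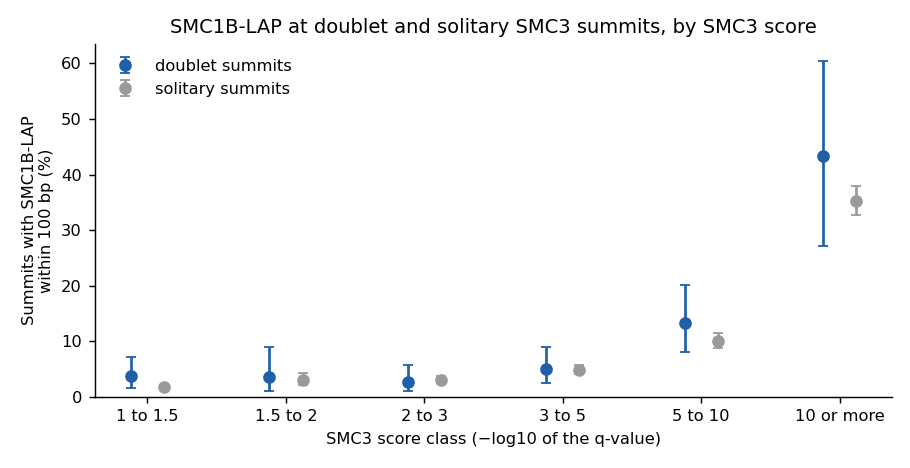
Percentage of SMC3 summits with an SMC1B-LAP summit within 100 bp (vertical axis) by SMC3 score class (horizontal axis, −log10 of the q-value), for doublet summits in blue and solitary summits in grey, with exact 95% intervals. Both groups are highest at scores of 10 or more, 43.2% and 35.3%, and the intervals of the groups overlap in every class.

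Counted by doublet, 431 of 489 had no SMC1B-LAP summit within 100 bp of either SMC3 summit, 50 had it at 1 summit and 8 at both. At least 1 summit was occupied in 58 doublets, or 11.9% (9.13% to 15.1%), against 12.7% of all neighbouring SMC3 pairs. By spacing this share was 8.88% (6.23% to 12.2%) at 1001 to 2000 bp and 8.88% (6.84% to 11.3%) at 2001 to 5000 bp. It was 11.6% at 5001 to 20000 bp, 12.8% at 20001 to 100000 bp and 13.4% above that. Both summits were occupied in 1.64% (0.71% to 3.20%) of doublets, against 0.56% of all neighbouring pairs, or 91 of 16260. Pairs spaced 1001 to 2000 bp had both summits occupied in 0.78% (0.16% to 2.27%), and pairs of 2001 to 5000 bp in 0.44% (0.09% to 1.29%). The share was 0.89% (0.50% to 1.46%) at 5001 to 20000 bp, 0.50% (0.33% to 0.72%) at 20001 to 100000 bp and 0.46% (0.32% to 0.64%) above that, so it did not fall steadily with distance. The share among doublets rested on 8 cases, 2 of which share a summit. Without runs of 3 or more it was 5 of 426, or 1.17% (0.38% to 2.72%), an interval that includes the 0.56% of all pairs. Doublets built within the strict SMC3 list were occupied at both ends in 6 of 98, or 6.12% (2.28% to 12.9%), against 1.84% of all neighbouring pairs of that list.

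Where 1 summit of a doublet was occupied, it was the stronger one somewhat more often than the weaker one. In the 50 such doublets SMC1B-LAP lay at the summit with the higher SMC3 score in 28, at the lower in 20, and the scores were equal in 2. The share at the higher summit was 56.0% (41.3% to 70.0%), an interval that includes an even split. The occupied summits had a median SMC3 score of 4.16 and their unoccupied neighbours 3.26. Occupation went with the strict SMC3 list among all neighbouring pairs, and doublets are given beside pairs of the same class. Of the 95 doublets with both summits in that list, 20, or 21.1% (13.4% to 30.6%), had 1 occupied summit, against 22.3% of all such pairs. Both were occupied in 6 of the 95, or 6.32% (2.35% to 13.2%), against 2.19%. Of the 220 doublets with 1 strict summit, 22, or 10.0% (6.37% to 14.7%), had 1 occupied summit and 2, or 0.91% (0.11% to 3.25%), had both, against 14.2% and 0.337% of such pairs. Of the 174 with none, 8, or 4.60% (2.01% to 8.86%), had 1 occupied summit, against 4.5%, and none had both (exact interval up to 2.10%), against 0.0695%.

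The 8 doublets with SMC1B-LAP at both summits lay in 7 stretches, and each SMC3 summit had an SMC1B-LAP summit of its own. The spacing of the SMC1B-LAP summits differed from that of the SMC3 summits by 2 to 46 bp, where the choice of these doublets allows at most 200 bp. On chromosome 11 a run of 3 SMC3 summits at 68853920, 68854517 and 68854801 scored 7.42, 40.6 and 7.54. SMC1B-LAP lay 3, 5 and 28 bp away with scores of 8.33, 18.2 and 4.74, so all 3 positions were matched and the middle one was the highest for both proteins. On chromosome 6 the summits at 3151068 and 3151503 scored 14.9 and 6.07, and SMC1B-LAP, at 21 and 1 bp, scored 7.13 and 3.85.

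In 2 of the other doublets the end with the higher score differed between the proteins. On chromosome 4, SMC3 scored 16.6 at 129912173 and 9.08 at 129912540, and SMC1B-LAP scored 1.86 and 4.74, at 14 and 18 bp. On chromosome 17, SMC3 scored 14.5 at 23683462 and 17.7 at 23684362, and SMC1B-LAP 5.97 and 1.85, at 9 and 4 bp. In the remaining doublets it was the same or the SMC1B-LAP scores were equal. On chromosome 13, at 23591993 and 23592441, the SMC3 scores of 16.6 and 9.41 stood beside SMC1B-LAP scores of 2.72 and 1.07. On chromosome 5, at 14962781 and 14963324 within the crowded window, SMC3 scored 2.17 and 6.61, and SMC1B-LAP had its commonest score of 1.07 at both, 20 and 66 bp away. The last pair was on chromosome 17 at 39983705 and 39984282, with SMC3 scores of 1.23 and 4.49 and SMC1B-LAP scores of 2.90 and 4.84 at 3 and 5 bp. By background knowledge this stretch of the assembly resembles ribosomal DNA, which the title of the series names. No annotation of mm9 was used. Further SMC1B-LAP summits that had no SMC3 summit within 100 bp lay 140 and 810 bp from its first SMC3 summit.

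**Figure D4:**
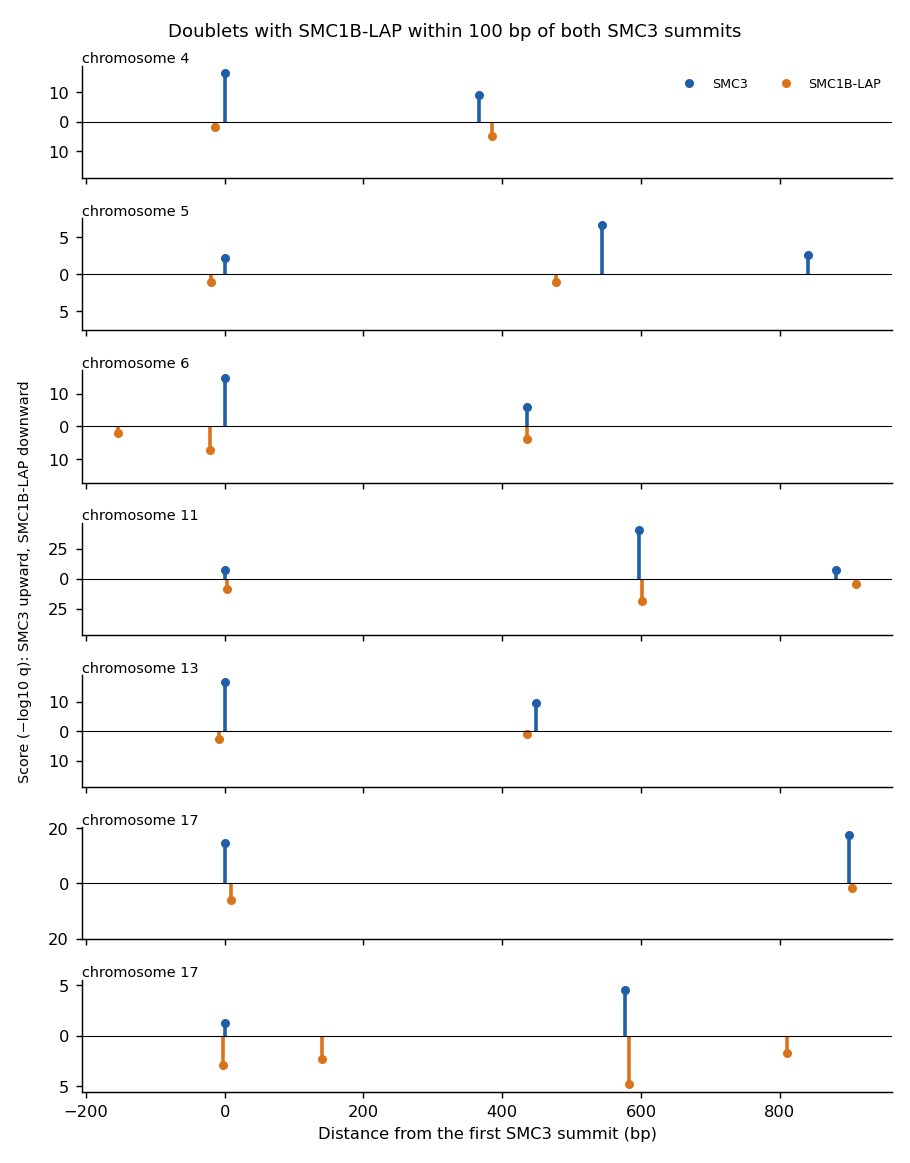
The 7 stretches that hold the 8 doublets with SMC1B-LAP within 100 bp of both SMC3 summits, 1 panel each; the horizontal axis is the distance in bp from the first SMC3 summit and the vertical axis the score (−log10 of the q-value), upward in blue for SMC3 and downward in orange for SMC1B-LAP. At these doublets the spacing of the SMC1B-LAP summits differs from that of the SMC3 summits by 2 to 46 bp.

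Most partners within 100 bp lay much closer than that in both groups. The median distance was 12 bp for the 63 occupied doublet summits and 11 bp for the 1016 occupied solitary ones. Within 50 bp lay 87.3% (76.5% to 94.4%) of the former and 95.8% (94.3% to 96.9%) of the latter, a difference of -8.47 percentage points (-18.9 to -2.18) that was computed after the shares were seen. The occupied doublet summits had a median SMC3 score of 5.79 and the occupied solitary ones 8.47. Unoccupied summits had a median of 2.40 in each group. The median SMC1B-LAP score at occupied summits was 2.22 for doublets and 1.86 for solitary summits.

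At wider distances the interval of the difference came to exclude 0. For any SMC1B-LAP summit the difference was 0.15 percentage points (-1.36 to 2.01) at 150 bp, 1.35 (-0.33 to 3.35) at 250 bp and 1.95 (0.21 to 4.02) at 300 bp. Within 500 bp of any SMC1B-LAP summit lay 12.3% (10.3% to 14.6%) of doublet and 7.88% (7.45% to 8.31%) of solitary summits, a difference of 4.44 percentage points (2.44 to 6.73). At this distance an SMC1B-LAP summit at 1 end of a doublet can be counted for the other end as well. When each SMC1B-LAP summit was given only to its nearest SMC3 summit, the doublet share fell to 9.77% (7.95% to 11.8%) and the difference to 1.89 percentage points (0.10 to 3.99). Counted this way the interval included 0 at each distance tried from 150 to 400 bp, with a difference of 1.49 (-0.24 to 3.54) at 400 bp. At 750 bp the difference was 1.64 (-0.19 to 3.78) and at 1000 bp 2.01 (0.10 to 4.23).

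The remaining difference lay at 101 to 500 bp, a range chosen after the values were seen. An SMC1B-LAP summit assigned in this way lay there for 29 of 942 doublet summits, or 3.08% (2.07% to 4.39%), and for 192 solitary summits, or 1.25% (1.08% to 1.44%). The difference was 1.83 percentage points (0.88 to 3.14), and the doublet share was the higher on 12 of 19 autosomes. The 29 cases were sparse, and chromosomes 7, 9, 10, 13, 14, 18 and 19 had none. Without densely filled windows the difference was 1.67 (0.73 to 3.01), and without runs of 3 or more 1.21 (0.35 to 2.50). Among the 431 doublets without a partner within 100 bp, 5 had an SMC1B-LAP summit between their 2 SMC3 summits. A further 26 had 1 within 500 bp outside them. These counts were not made for other neighbouring pairs or solitary summits, so no excess can be read from them.

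**Figure D5:**
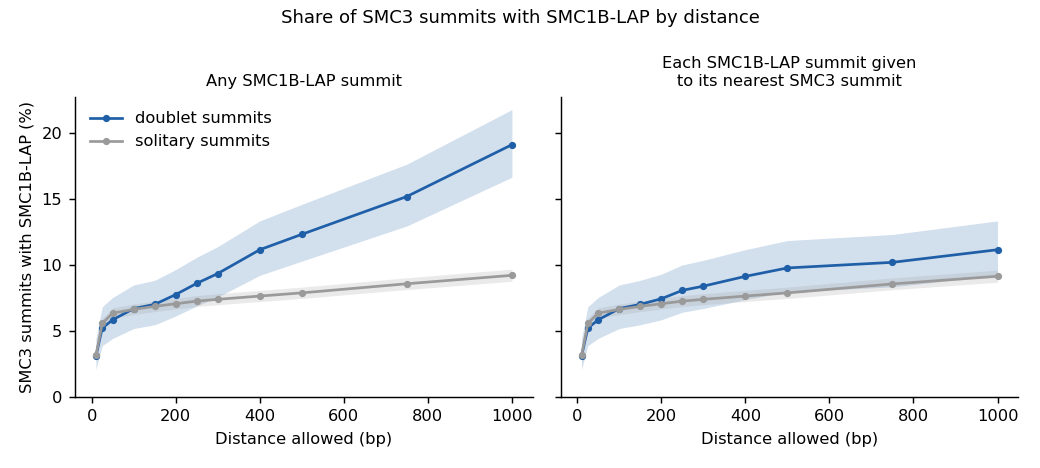
Percentage of doublet (blue) and solitary (grey) SMC3 summits with an SMC1B-LAP summit (vertical axis) by the distance allowed in bp (horizontal axis), with exact 95% intervals as bands; the left panel counts any SMC1B-LAP summit and the right panel gives each only to its nearest SMC3 summit. At 500 bp doublet summits reach 12.3% in the left and 9.77% in the right panel, and solitary summits 7.88% in both.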

How the data were processed

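The authors deposited 1-base summits on mm9 with a score, the −log10 of the q-value. Per the submitters' processing notes, Bowtie2 0.12.8 and MACS2 were used. How the input, duplicates and nearby summits were treated is not given in the sources used here, and merging or splitting of peaks by the caller would change the number of doublets. Lists at an FDR of 0.1 were used for SMC3 and for SMC1B-LAP (9522 autosomal summits). Summits were sorted by position and neighbouring pairs up to 1000 bp apart taken as doublets. Shares have exact (Clopper-Pearson) intervals, per-chromosome shares of 0 a limit of 3 counts, and differences Newcombe intervals. The score-weighted difference used 6 SMC3 score classes and a normal interval. Densely filled windows of 100 kb had a Poisson upper tail below 0.05 after Bonferroni correction, with the chromosome's mean. The procedures were tested on simulated data. Alternatives covered doublet distances of 500 and 2000 bp, SMC1B-LAP distances of 50 and 250 bp, the other FDR lists, and leaving out densely filled windows, tied SMC1B-LAP scores (4517 autosomal summits at 1.07) and runs. Doublets were named by rank: the 10 with the highest lower score, the 5 closest, 5 widest and 5 just outside, runs of 4 or more, the pairs occupied at both ends (up to 10, of which there were 8) and the 5 fullest windows. The doublets and these rules were chosen with earlier results of these data known. No gene annotation or genome of mm9 was used. Analyses used Python 3.11.15, pandas 2.3.3, numpy 2.4.6 and SciPy 1.17.1.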

Additional observations from a re-analysis of the deposited data

How the results depend on the processing

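Of 42 recomputed values, 35 stayed within the interval of the reported value or, for the number of doublets, within 1.5 times of it, and 7 did not. The number of doublets was 245 at a limit of 500 bp, 872 at 2000 bp and 98 within the strict SMC3 list, as fewer or more pairs qualify. In that strict list the difference in SMC1B-LAP share between doublet and solitary summits was 3.70 percentage points (-0.93 to 9.64), the score-weighted difference 5.54 and the share of doublets occupied at both ends 6.12%, from 6 of 98, against 1.84% of all neighbouring pairs of that list. The cause was not tested. The difference in membership of the FDR 0.001 list was 5.06 percentage points at 500 bp, where only the closer pairs count. The difference at 101 to 500 bp stayed between 1.21 and 2.77 percentage points in its 7 alternatives, which were added after seeing the data. No paired analysis was possible because each target has 1 library. The number of doublets limits every share given here, and read depth is unknown.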

Other observations

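SMC1B-LAP formed close pairs of its own. On the autosomes 287 of 9503 neighbouring SMC1B-LAP pairs, or 3.02%, were 1000 bp or less apart, with a median spacing of 457 bp and a minimum of 106 bp. Of these 287 pairs, 240 had no SMC3 summit within 100 bp of either end, 40, or 13.9% (10.1% to 18.5%), had it at 1 end and 7, or 2.44% (0.99% to 4.96%), at both. Over all neighbouring SMC1B-LAP pairs these shares were 19.5% and 1.6%. In all 7 the SMC3 summits belonged to 1 SMC3 run.

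The X chromosome was outside the rule. It held 106 SMC3 pairs 1000 bp or less apart, 7.51% of its neighbouring pairs. SMC1B-LAP lay within 100 bp of 21 of 191 summits in these pairs, or 11.0% (6.94% to 16.3%), and of 95 of 1221 solitary X summits, or 7.78% (6.34% to 9.43%).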
